A study of Mus musculus with 26 samples.

Results

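The mRNAs of 10 antioxidant enzymes were followed through RNA immunoprecipitation and sequencing of mouse brown fat with an antibody to IMP2. The enzymes are Gpx1, Gpx3, Gpx4, Sod1, Sod2, Prdx1, Prdx3, Prdx5, Cat and Txn2, taken by symbol, with the transcript of the highest summed count kept for each. The choice drew on measured values for 2 of them: Gpx1 stood above the IgG control and Sod1 stood higher in knockout total RNA. Those contrasts are therefore described here without a test of these enzymes. All 10 are among 9378 genes of a table with an IgG control, called the IgG table, and 6 of them (Gpx1, Gpx3, Gpx4, Sod1, Prdx5 and Txn2) are among 1189 genes of a table with knockout mice, called the knockout table.

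The mice were Imp2-/- animals and wild-type littermates, bred from heterozygous parents on a C57Bl/6J background. All were males of 10 weeks on normal chow that spent a night at 4 °C before brown fat was taken, so every group had been exposed to cold. The knockout table holds wild-type IMP2 immunoprecipitates (libraries 21 and 22), knockout IMP2 immunoprecipitates (23 and 24), knockout total RNA (18 and 19) and wild-type total RNA (16 and 17). The IgG table holds 1 wild-type IMP2 immunoprecipitate (25), 1 wild-type immunoprecipitate with nonspecific IgG (26) and 2 wild-type total RNA libraries (15 and 20). The knockout and IgG immunoprecipitates both measure recovery of RNA that does not need IMP2. The other 14 of the 26 samples are liver and were not analysed here.

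IMP2, the product of Igf2bp2, binds mRNAs and affects their stability and translation. Mitochondria leak superoxide as they burn fuel, and brown fat in the cold burns a great deal of it. Superoxide dismutases turn superoxide into hydrogen peroxide, which catalase, glutathione peroxidases and peroxiredoxins then reduce; thioredoxins restore the peroxiredoxins. Several glutathione peroxidases carry selenocysteine, an amino acid inserted at a recoded stop codon.

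Counts summed over genes ran between 780333 and 4916160 per library in the knockout table and between 1321756 and 3750103 in the IgG table. Levels are given in CPM, counts scaled by each library's total over the genes listed in the same table, after that total was adjusted by TMM. The TMM factors ran from 0.962 to 1.062 in the knockout table and from 0.964 to 1.093 in the IgG table. Levels are therefore not comparable between tables. They are not divided by transcript length, so genes are not ranked by level. Ucp1, the uncoupling protein that marks brown adipocytes, had 5194 to 10859.7 CPM in the 8 libraries of the knockout table. All 10 brown adipocyte markers looked up are listed in the IgG table and 6 in the knockout table. Skeletal muscle markers differed widely between libraries: 6 of 10 are listed in the knockout table, and their summed level was 1099.8 and 5348 CPM in wild-type immunoprecipitates, 242 and 994 CPM in knockout immunoprecipitates, 469 and 2001 CPM in knockout total RNA, and 2174 and 8366 CPM in wild-type total RNA. No marker of macrophages or endothelium is listed in the knockout table. Igf2bp2 has no row there either, so the knockout label could not be checked. Nothing in the labels ties the libraries of a group to different animals, and p-values then cover only the spread between these libraries, which may be technical. In whole tissue, fewer cells of a type and less RNA per cell cannot be told apart.

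Gpx1 reduces hydrogen peroxide in the cytosol and mitochondria with glutathione and is a selenoprotein; its gene lies on chromosome 9, at 108339080 to 108340342 in GRCm38.p6. Gpx1 mRNA had 2840.3 and 2969 CPM in wild-type IMP2 immunoprecipitates, against 2239 and 2501 CPM in wild-type total RNA. Both immunoprecipitates were above both total RNA libraries. The log2 ratio was 0.29 ± 0.12 (SE, 95% confidence interval 0.025 to 0.56), which did not pass the threshold of 0.05 after Benjamini-Hochberg adjustment over 1189 genes in edgeR's quasi-likelihood test (adjusted p = 0.104). With DESeq2 the adjusted p was 0.0450, and with upper-quartile scaling in edgeR it was 0.0298. In the knockout, Gpx1 had 2889.6 and 2655 CPM in immunoprecipitates and 2878 and 2642 CPM in total RNA, a log2 ratio of 0.0068 ± 0.12 (SE, 95% confidence interval -0.26 to 0.27). The groups overlapped, so antibody recovery of Gpx1 mRNA from tissue without IMP2 was not distinguishable from its total RNA level. The 2 genotypes' immunoprecipitates overlapped as well, with a log2 ratio of wild type over knockout of 0.067 ± 0.12 (SE, edgeR adjusted p = 0.783).

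Gpx3, the secreted glutathione peroxidase of plasma and another selenoprotein, lies on chromosome 11 at 54902854 to 54910387. Its transcript took 2.65 to 5.85% of the gene counts of each library in the knockout table. It had 52648 and 58639.6 CPM in wild-type immunoprecipitates, against 39485 and 45254 CPM in wild-type total RNA. The wild-type groups did not overlap. In the knockout it had 46790.2 and 31509.9 CPM in immunoprecipitates, against 43047 and 27500.4 CPM in total RNA. Within each knockout group, 1 library (23 and 18) was high and the other (24 and 19) low, and the knockout groups overlapped. The resulting error was wide, with a log2 ratio over total RNA of 0.39 ± 0.37 (SE) in wild type and 0.15 ± 0.37 (SE) in knockout (edgeR adjusted p = 0.456 and 0.802). The wild-type immunoprecipitates were both above the knockout ones, by 0.51 ± 0.37 on the log2 scale (SE, edgeR adjusted p = 0.486). That value was 0.24 without knockout immunoprecipitate 24 and 0.79 without knockout immunoprecipitate 23. The errors come from an unpaired model: Gpx3, Dio2 and the summed muscle markers ran in the same order in libraries 21 and 22 as in 16 and 17, and in 23 and 24 as in 18 and 19, but the labels tie no immunoprecipitate to a total RNA library. Whether these libraries share tissue was not tested, and if they do, the unpaired errors do not take it into account.

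Gpx4, the selenoprotein that reduces lipid hydroperoxides in membranes, lies on chromosome 10 at 80047166 to 80056439. It had 512 and 541 CPM in wild-type immunoprecipitates, against 526 and 488 CPM in wild-type total RNA. In the knockout it had 491 and 567 CPM in immunoprecipitates, against 593 and 648 CPM in total RNA. The wild-type groups overlapped, and both knockout immunoprecipitates were below both knockout total RNA libraries. As shares of gene counts without TMM, the knockout groups overlapped, at 0.0521 and 0.0593% in immunoprecipitates and 0.0572 and 0.0623% in total RNA. The wild-type groups then did not overlap, at 0.0529 and 0.0540% against 0.0508 and 0.0476%. The log2 ratio over total RNA was 0.055 ± 0.13 (SE) in wild type and -0.23 ± 0.13 (SE) in knockout, and neither passed (edgeR adjusted p = 0.783 and 0.224). The knockout ratio was -0.10 with library size alone and -0.065 with upper-quartile scaling.

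Sod1, the copper and zinc superoxide dismutase of the cytosol, lies on chromosome 16 at 90220762 to 90226333. Its mRNA was below total RNA in the immunoprecipitates of both genotypes in TMM-scaled CPM. It had 740.2 and 679 CPM in wild-type immunoprecipitates, against 823 and 748 CPM in wild-type total RNA. In the knockout it had 836 and 937 CPM in immunoprecipitates, against 1141 and 1058 CPM in total RNA. Neither pair of groups overlapped, and the log2 ratios were -0.15 ± 0.12 in wild type and -0.31 ± 0.12 in knockout (SE). In wild type this depended on scaling. As shares of gene counts without TMM, wild-type immunoprecipitates had 0.0764 and 0.0677% and wild-type total RNA 0.0795 and 0.0730%, which overlapped. Upper-quartile scaling gave log2 ratios of -0.0023 in wild type and -0.14 in knockout. The Sod1 ratios are given without a test, because the total RNA they are set against is what singled Sod1 out. The choice of genes did not use the immunoprecipitates, but whether these share tissue with the total RNA was not tested. They are therefore no separate support for the total RNA difference. In the immunoprecipitates too, both knockout libraries were above both wild-type ones. The log2 ratio of wild type over knockout was -0.32 ± 0.12 (SE, 95% confidence interval -0.59 to -0.054), which did not pass (unadjusted p = 0.0238 and adjusted p = 0.213 in edgeR's quasi-likelihood test; adjusted p = 0.108 in DESeq2). Summed muscle markers were lower in both knockout immunoprecipitates than in both wild-type ones, at the levels given above, and their part in the Sod1 difference was not tested.

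Prdx5, a peroxiredoxin of mitochondria, peroxisomes and cytosol, lies on chromosome 19 at 6906697 to 6910106. It was higher in immunoprecipitates than in total RNA in both genotypes. It had 854 and 870.3 CPM in wild-type immunoprecipitates, against 668 and 571 CPM in wild-type total RNA. It had 821 and 905 CPM in knockout immunoprecipitates, against 673 and 727 CPM in knockout total RNA. Neither pair of groups overlapped, and the immunoprecipitates of the 2 genotypes overlapped (log2 ratio of wild type over knockout -0.0023 ± 0.12, SE, 95% confidence interval -0.28 to 0.28). In wild type the log2 ratio over total RNA was 0.48 ± 0.12 (SE) and passed in edgeR's quasi-likelihood test (adjusted p = 0.0281). It did not pass once any 1 of libraries 16, 17, 21 or 22 was left out (adjusted p between 0.0562 and 0.132), with the wild-type groups fitted alone (0.0664), or with the wild-type libraries of both tables together (log2 ratio 0.32, adjusted p = 0.325). In the knockout the log2 ratio was 0.30 ± 0.12 (SE), with an adjusted p of 0.0963 in edgeR and 0.0422 in DESeq2. The difference between the 2 ratios, wild type minus knockout, was 0.17 ± 0.17 (SE, 95% confidence interval -0.22 to 0.57, edgeR adjusted p = 0.999).

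Txn2, the mitochondrial thioredoxin, lies on chromosome 15 at 77915051 to 77928994. It varied least of the 6, with 1.18-fold between its lowest and highest library. It had 2461 and 2079 CPM in wild-type immunoprecipitates, against 2453 and 2452 CPM in wild-type total RNA. It had 2269 and 2215 CPM in knockout immunoprecipitates, against 2289 and 2219 CPM in knockout total RNA. Both pairs of groups overlapped, and the log2 ratios were -0.11 ± 0.12 and -0.0078 ± 0.11 (SE; edgeR adjusted p = 0.504 and 0.972).

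**Figure D1:**
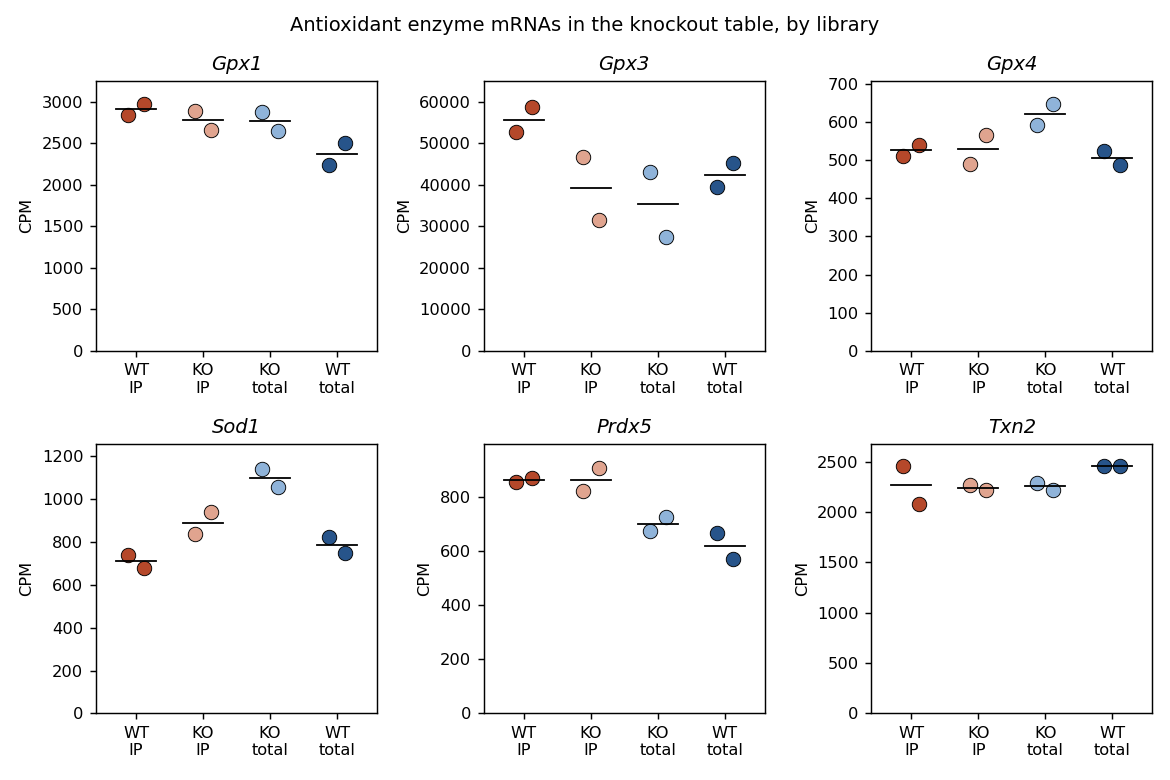
Level of the 6 antioxidant enzyme mRNAs of the knockout table in CPM, with 1 point per library and a line at the group mean, for wild-type (WT) and knockout (KO) IMP2 immunoprecipitates (IP) and KO and WT total RNA. Prdx5 is higher in the immunoprecipitates of both genotypes than in their total RNA, and Sod1 is highest in KO total RNA (1141 and 1058 CPM).

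Sod1 is left out of the counts against total RNA. In wild type, 1 of the other 5 enzymes passed as higher in the immunoprecipitate than in total RNA and 0 as lower, beside 9.92% and 12.4% of all 1189 genes. In DESeq2 2 passed as higher, where 192 of the 1189 genes were higher and 203 lower. In TMM-scaled CPM, groups did not overlap for 3 enzymes that were higher (Gpx1, Gpx3 and Prdx5) and 0 that were lower, beside 32.2% and 33.8% of all genes. The median log2 ratio of the 5 was 0.29, and that of all genes 0.011. In the knockout 0 of the 5 passed in edgeR, beside 10.6% of all genes that passed as higher and 15.7% as lower; 1 enzyme, Prdx5, had an unadjusted p under 0.05 and passed in DESeq2. There, in TMM-scaled CPM, 1 enzyme was higher and 1 lower without overlap, beside 32.6% and 33.9% of all genes. The median of the 5 in the knockout was 0.0068, against -0.0078 for all genes. Red blood cell markers, 3 of 8 listed, were lower in immunoprecipitates than in total RNA of both genotypes, with summed levels of 2669 and 2734 CPM against 5038 and 4299.7 CPM in wild type and 2408 and 1618 CPM against 4845 and 3625 CPM in knockout; the identical counts of Hba-a1 and Hba-a2 enter both times. Their part in these ratios, and that of the muscle markers, was not tested.

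Recovery that depends on IMP2 was measured as the wild-type log2 ratio over total RNA minus the knockout one. It was 0.29 ± 0.17 for Gpx1, 0.29 ± 0.19 for Gpx4 and 0.24 ± 0.52 for Gpx3 (SE). It was -0.10 ± 0.16 for Txn2 (SE). With the 0.17 ± 0.17 of Prdx5, each of these 5 intervals included 0. Of the 5, 0 passed in edgeR or DESeq2, beside 0% of all 1189 genes in edgeR. At an unadjusted p under 0.05 in edgeR there were 0, beside 29 of all genes, of which 29 were higher and 0 lower. The median of the 5 was 0.24 and that of all listed genes -0.0021. For Sod1 the value was 0.16, made up of -0.32 between the wild-type and knockout immunoprecipitates and 0.48 between knockout and wild-type total RNA, the difference it was chosen on; it is left out of the counts. The listed genes end sharply at -0.30 on this scale and reach 0.81, so genes below that edge are not in the knockout table. The enzymes' median and counts on this scale are therefore limited to genes inside the edge, and nothing is read from them. Whether Sod2, Prdx1, Prdx3 and Cat are absent for this reason was not tested. For Gpx1 the value of 0.29 was made up of 0.067 between the wild-type and knockout immunoprecipitates and 0.22 between knockout and wild-type total RNA. For Gpx4 these parts were -0.0061 and 0.29, so its value came from total RNA.

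Between immunoprecipitates, 0 of the 6 passed in edgeR or DESeq2, beside 0% of all genes in edgeR and 60 higher and 33 lower in DESeq2. Of the 6, only Sod1 had an unadjusted p under 0.05 in edgeR, as did 211 of all 1189 genes. Without overlap, 1 enzyme was higher in wild type (Gpx3, beside 26.9% of all genes) and 1 lower (Sod1, beside 24.3%).

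**Figure D2:**
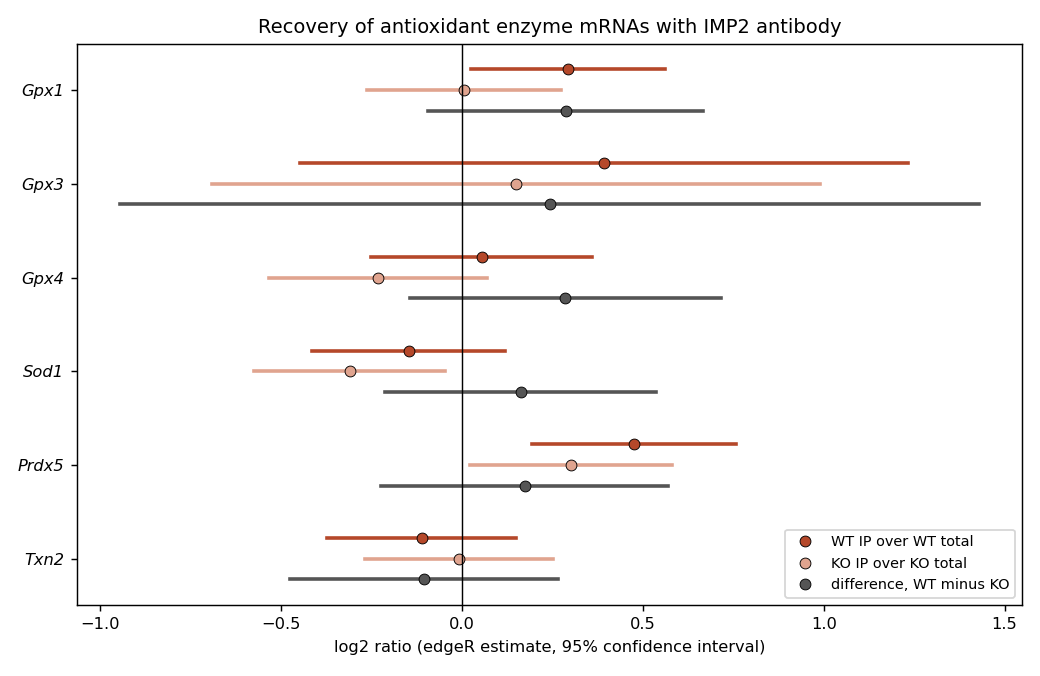
Log2 ratio of immunoprecipitate over total RNA in wild type and in knockout, and the difference of these ratios, for each of the 6 enzymes, as points with 95% confidence intervals from edgeR. The wild-type intervals of Prdx5 (0.19 to 0.76) and Gpx1 (0.025 to 0.56) and the knockout interval of Prdx5 (0.024 to 0.58) lie above 0, and every interval of the difference includes 0. The ratios of Sod1 use the total RNA it was chosen on and are shown as a description.

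Knockout total RNA was set beside wild-type total RNA as a description, since Sod1 was chosen on it. Sod1 was 0.48 higher in knockout on the log2 scale and stood 33rd of 1189 genes in that order. Gpx4 followed with 0.29, Gpx1 with 0.22 and Prdx5 with 0.18, while Txn2 was at -0.12 and Gpx3 at -0.26. Without overlap, 4 enzymes were higher in knockout (Sod1, Gpx4, Gpx1 and Prdx5) and 1 lower (Txn2), where 21.4% and 21.7% of all genes were; nothing is read from these counts. The Gpx3 value came to 0.023 without knockout library 19 and to -0.63 without knockout library 18.

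The IgG table was read as a description too, since it has 1 library per immunoprecipitate and Gpx1 was chosen on it. Gpx1 had 1256 CPM in the IMP2 immunoprecipitate, against 532 CPM in the IgG immunoprecipitate. Its total RNA levels were 1091 and 963 CPM. The ratio of IMP2 over IgG was 2.36 (95% exact interval 2.21 to 2.52, counting error only), higher than for 97.4% of the 8966 genes kept after the filter on low counts. Other processing choices gave 2.08 to 2.39, and the interval does not cover the choice of scaling. The IMP2 immunoprecipitate was 1.15 and 1.30 times the 2 total RNA libraries, and the IgG immunoprecipitate 0.488 and 0.552 times. The distance between the antibodies was therefore made up more of a low IgG level than of a high IMP2 level.

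Gpx3 had 24736 CPM in the IMP2 immunoprecipitate, 10744 CPM in the IgG immunoprecipitate, and 18792 and 14436 CPM in total RNA. Its ratio of IMP2 over IgG was 2.30 (2.27 to 2.34), and other processing choices gave 2.03 to 2.34. The IMP2 level was 1.32 and 1.71 times the 2 total RNA libraries, and the IgG level 0.572 and 0.744 times. Txn2 had 958 CPM with IMP2 and 542 CPM with IgG, with 1069 and 917 CPM in total RNA. Its ratio was 1.77 (1.65 to 1.90), although the IMP2 level fell between the 2 total RNA libraries. For Txn2 other processing choices gave 1.56 to 1.80. Gpx4 had 373 CPM with IMP2 and 273 CPM with IgG, above 194 and 268 CPM in total RNA, and a ratio of 1.37 (1.22 to 1.52).

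Catalase, which splits hydrogen peroxide in peroxisomes (Cat, chromosome 2, 103453904 to 103485153), was 1 of the 4 enzymes measured in the IgG table alone. It had 937 CPM with IMP2 and 631 CPM with IgG, and 716 and 512 CPM in total RNA. The IMP2 immunoprecipitate stood above both total RNA libraries and the IgG one between them. The ratio was 1.49 (1.39 to 1.59), and other scalings or summed transcripts gave 1.31 to 1.51, on either side of 1.5-fold.

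The other superoxide dismutase, mitochondrial Sod2 (chromosome 17, 13007839 to 13018119), had 486 CPM with IMP2 and 397 CPM with IgG, beside 489.6 and 490.1 CPM in total RNA. The IMP2 immunoprecipitate was 0.992 and 0.991 times the total RNA libraries, and the ratio over IgG was 1.22 (1.11 to 1.34). Sod1 had 598 CPM with IMP2 and 595 CPM with IgG, a ratio of 1.01 (0.925 to 1.09). Both values lay between its total RNA levels of 453 and 849.7 CPM.

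Among the peroxiredoxins, mitochondrial Prdx3 (chromosome 19, 60864066 to 60874538) had 322 CPM with IMP2 and 278 CPM with IgG, both below 374 and 362 CPM in total RNA. Prdx5 had 350.4 CPM with IMP2 and 296 CPM with IgG, both between 199 and 413 CPM in total RNA. Cytosolic Prdx1 (chromosome 4, 116685599 to 116700000) had 80.1 CPM with IMP2 and 86.7 CPM with IgG, both below 117 and 89.1 CPM in total RNA. The ratios were 1.16 (1.03 to 1.30) for Prdx3, 1.18 (1.06 to 1.32) for Prdx5 and 0.924 (0.734 to 1.15) for Prdx1. Prdx1 was below the IgG level in these values, with an interval that includes 1, and Sod1 was too under upper-quartile scaling (0.964) and library size alone (0.887).

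**Figure D3:**
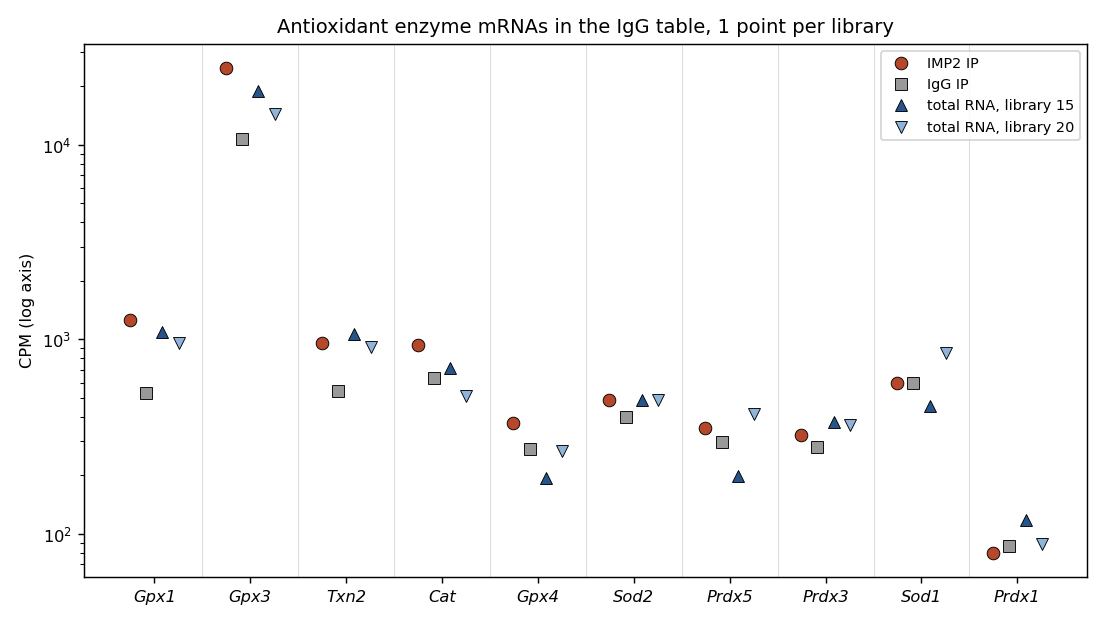
Level of the 10 enzyme mRNAs in the 4 wild-type libraries of the IgG table, in CPM on a log axis and not per transcript length, ordered by the ratio of the IMP2 over the IgG immunoprecipitate (IP). For Gpx1, Gpx3 and Txn2 the IgG point lies well below the other 3, while for Sod1 and Prdx5 the total RNA libraries differ by more than the immunoprecipitates.

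Of the 10 enzymes, 3 were at least 1.5-fold higher with IMP2 than with IgG and 0 at least 1.5-fold lower, beside 16.9% and 22.4% of the 8966 genes. The median ratio of the 10 was 1.29, and that of all genes 0.996. Gpx1, chosen on this ratio, is among the 3 and also enters the median and the counts against total RNA. Nothing is therefore read from these counts. The IgG immunoprecipitate was below both total RNA libraries for 6 of the 10, beside 36.3% of all genes, and above both for 1, beside 37.9%. The IMP2 immunoprecipitate was above both for 4 (Gpx1, Gpx3, Gpx4 and Cat) and below both for 3, beside 34.2% and 35.7%. The total RNA libraries themselves differed 2.07-fold for Prdx5 and 1.88-fold for Sod1, both higher in library 20, and by less than 1.5-fold for the other 8 enzymes; 37.0% of all genes differed by 1.5-fold or more. Summed muscle markers were 8039 CPM with IMP2, 5757 CPM with IgG, and 15457 and 8882 CPM in total RNA libraries 15 and 20, and their part in these ratios was not tested.

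**Figure D4:**
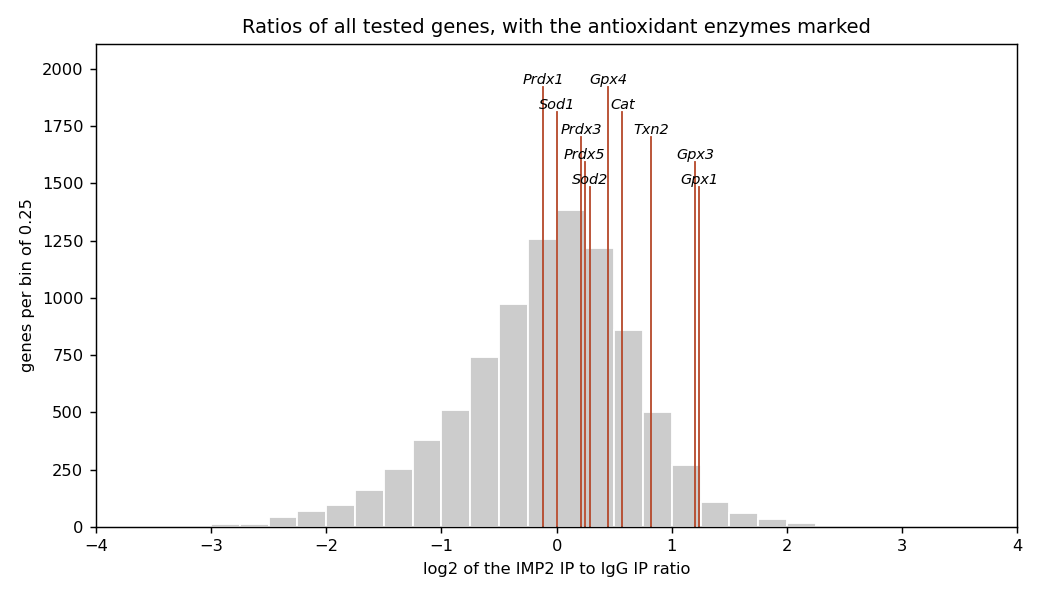
Number of genes by log2 ratio of the IMP2 over the IgG immunoprecipitate (IP), in bins of 0.25, for 8966 genes of the IgG table, with a line for each antioxidant enzyme. Gpx1 and Gpx3 sit in the upper tail (ratios 2.36 and 2.30), and Sod1 and Prdx1 sit near the middle of the distribution (1.01 and 0.924). Gpx1 was chosen on this ratio and is shown as a description.

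The rest of the antioxidant pathway was described from lists of peroxidases, thioredoxin and glutathione enzymes, glutathione transferases, selenoproteins and their synthesis machinery, NADPH suppliers and regulators. Of its genes, 17 are in the knockout table. In wild type, 2 of the 17 were higher in the immunoprecipitate than in total RNA and 0 lower in edgeR, beside 9.92% and 12.4% of all genes, and 5 passed in DESeq2. Txnrd2, the mitochondrial thioredoxin reductase that keeps Txn2 reduced, had 548 and 724 CPM in wild-type immunoprecipitates, against 351 and 335 CPM in wild-type total RNA. Its log2 ratio of 0.89 ± 0.16 (SE) passed in edgeR (adjusted p = 0.00764) and was 0.67 to 1.07 with any 1 of the 4 libraries left out. In the knockout the Txnrd2 ratio was 0.42 ± 0.16 (SE) and did not pass (edgeR adjusted p = 0.0851). Both knockout immunoprecipitates were still above both knockout total RNA libraries. In the IgG table, its IgG level was 1.55 and 1.19 times the 2 total RNA libraries, and its IMP2 level 2.66 and 2.03 times. In the wild-type libraries of the knockout table, its substrate Txn2 had a log2 ratio of -0.11. Gstm1, a glutathione transferase, had a log2 ratio of 0.52 ± 0.12 (SE, edgeR adjusted p = 0.0193), which did not pass with any 1 library left out (adjusted p between 0.0637 and 0.0880). Sephs2, which makes the selenium donor for selenoproteins, was at 0.62 ± 0.24 (SE), which did not pass in edgeR (adjusted p = 0.0993) but did in DESeq2 (0.0165), with the wild-type groups fitted alone (0.0280) and with the wild-type libraries of both tables (0.00589); with any 1 of the 4 libraries left out it was between 0.177 and 0.297. The smallest values were -0.42 ± 0.40 for Me1, malic enzyme, and -0.33 ± 0.12 for Prdx6 (SE, edgeR adjusted p = 0.471 and 0.0838).

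In the knockout, 1 of the 17 was higher in the immunoprecipitate and 0 lower in edgeR, beside 10.6% and 15.7% of all genes. In DESeq2 3 passed, where 220 of all 1189 genes were higher and 238 lower. The 1 in edgeR was Gstm1 again, with 759 and 641 CPM in knockout immunoprecipitates against 469.5 and 492 CPM in knockout total RNA, a log2 ratio of 0.54 ± 0.12 (SE, edgeR adjusted p = 0.0136). Without knockout library 18 or 23 its adjusted p was 0.0661 or 0.0811. Sephs2 was at 0.71 ± 0.24 (SE), with an adjusted p of 0.0595 in edgeR, 0.00321 in DESeq2, 0.0265 with upper-quartile scaling, 0.0298 with library size alone, 0.0205 without library 19, 0.0380 without 23, 0.231 without 18 and 0.285 without 24. Prdx6 was at -0.27 ± 0.12 and Blvrb, a biliverdin reductase, at -0.41 ± 0.17 (SE, edgeR adjusted p = 0.127 and 0.0970). Between immunoprecipitates 0 of the 17 passed in edgeR and 3 had an unadjusted p under 0.05, beside 0% and 211 of all 1189 genes. DESeq2 gave 60 of all genes higher and 33 lower, and 2 of the 17 passed in it. These were Txnrd2 and Gstm1. Txnrd2 was 0.63 ± 0.16 higher in wild type (SE, adjusted p = 0.152 in edgeR and 0.00433 in DESeq2). Gstm1 was 0.46 ± 0.12 higher in wild type (SE, adjusted p = 0.152 in edgeR and 0.0152 in DESeq2). Gstm1 was also higher in wild-type than in knockout total RNA, and its IMP2-dependent recovery was -0.022 ± 0.17 (SE). Pgd and Me1, which supply NADPH, had the smallest values, -0.44 ± 0.34 and -0.39 ± 0.40 (SE, edgeR adjusted p = 0.519 and 0.629).

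For IMP2-dependent recovery 0 of the 17 passed in edgeR or DESeq2, beside 0% of all genes in edgeR. At an unadjusted p under 0.05 in edgeR there was 1, beside 29 of all 1189 genes, of which 29 were higher and 0 lower. The largest values were 0.47 ± 0.23 for Txnrd2 and 0.45 ± 0.20 for Park7, a redox-sensitive chaperone (SE, edgeR adjusted p = 0.999 for each). For Park7 the parts were 0.12 between wild-type and knockout immunoprecipitates and 0.33 between knockout and wild-type total RNA. For Txnrd2 these parts were 0.63 and -0.16. The smallest values were -0.21 ± 0.56 for Me1 and -0.11 ± 1.38 for Dio2 (SE, edgeR adjusted p = 0.999 for each). Dio2, the selenoprotein that activates thyroid hormone, had 90.1 and 697 CPM in knockout immunoprecipitates and 58.3 and 523 CPM in knockout total RNA. Libraries 23 and 18, low for Dio2, were the high ones for Gpx3. In total RNA 0 of the 17 passed between genotypes in edgeR and 2 had an unadjusted p under 0.05, beside 0% and 132 of all 1189 genes. DESeq2 gave 18 of all genes higher and 17 lower, and 1 of the 17 passed in it. It was Gstm1, at -0.48 ± 0.12 in knockout over wild type (SE, adjusted p = 0.266 in edgeR and 0.0156 in DESeq2). Its levels were 469.5 and 492 CPM in knockout total RNA, against 688 and 655 CPM in wild-type total RNA.

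The IgG table holds 54 genes of these lists, of which 18 were at least 1.5-fold higher with IMP2 than with IgG and 2 at least 1.5-fold lower, with a median ratio of 1.25. Over all 8966 genes these shares were 16.9% and 22.4% and the median was 0.996. Selm, a selenoprotein of the endoplasmic reticulum, had the highest ratio, 2.52 (1.28 to 4.88), from 18 counts with IMP2 and 23 with IgG. Sod3, the secreted superoxide dismutase, followed with 2.39 (2.08 to 2.76). As for Gpx1, the IgG level of Sod3 was well below total RNA, with 272 CPM with IMP2, 114 CPM with IgG, and 248 and 221 CPM in total RNA. The lowest ratios were 0.4997 (0.275 to 0.851) for Sephs1 and 0.515 (0.211 to 1.09) for Txnrd3, a thioredoxin reductase with 8 counts with IMP2 and 50 with IgG.

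Across the 8 libraries of the knockout table the 6 enzymes did not move as a block. Pearson's r of log2 CPM was 0.76 between Sod1 and Gpx4 and -0.71 between Sod1 and Gpx3, as a description of libraries that share genotype and antibody. The genes most like each enzyme by that measure were Mrpl11 (0.92) and Tmem205 (0.91) for Gpx1, Retn (0.95) and Cdk5 (0.95) for Gpx3, and Lgals1 (0.90) and Tkt (0.88) for Gpx4. For Sod1 they were Eif3f (0.94) and Ptdss2 (0.94), for Prdx5 Ifi27l1 (0.98) and Ndufv1 (0.97), and for Txn2 Plin3 (0.87) and Gmpr (0.76).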

How the data were processed

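RNA of mouse brown fat was sequenced in 12 libraries. Raw counts for RefSeq transcripts were deposited by the authors with no scaling. How reads were counted and transcripts listed is not given in the sources used here; TopHat2 2.0.8, Cufflinks 2.1.1 and mm10 stand in the submitters' processing notes. The knockout table lists 1579 transcripts, each with at least 101 counts in every wild-type library, and the IgG table lists 12840. Transcripts without a symbol were named from a RefSeq table (GRCm38.p6, which also gave gene positions). The 3 and 22 left unnamed, with 8.65 to 29.2% and 7.39 to 15.8% of counts per library, were set aside. Gpx4 has 2 transcript rows per table, and the other enzymes 1.

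After TMM scaling, all 8 libraries of the knockout table entered 1 model (4 residual degrees of freedom, biological coefficient of variation 15.3%) in edgeR 4.0.16 under R 4.3.3. Its quasi-likelihood F test was adjusted by Benjamini-Hochberg over all genes, with a threshold of 0.05, and gave the standard errors and 95% confidence intervals. DESeq2 1.42.0, other scalings, filters and leaving out each library were alternatives. All 6 and 10 enzymes passed edgeR's filter on low counts, as did every gene of the knockout table and 8966 in the IgG table. Single libraries of the IgG table were compared by ratios of CPM with exact Clopper-Pearson intervals, which cover counting error only. The method was tested on simulated data.

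The enzymes and gene lists were chosen with earlier results of these data known. All 10 enzymes are named, with up to 2 pathway genes of the largest and 2 of the smallest values per comparison and those past the threshold, and the 2 genes most like each enzyme.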

Additional observations from a re-analysis of the deposited data

How the results depend on the processing

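Of the 2 counts of all genes higher and lower in wild-type immunoprecipitates than total RNA (118 and 148), upper-quartile scaling gave 214 and 94, DESeq2 gave 192 and 203, and leaving out 1 library gave 32 to 79 and 61 to 92. For knockout immunoprecipitates against total RNA (126 and 187), upper-quartile scaling gave 273 and 130, library size alone 246 and 145, DESeq2 220 and 238, and leaving out 1 library 47 to 81 and 87 to 155. Upper-quartile scaling shifted the median of all genes to 0.15 in wild type and 0.16 in knockout, and library size alone shifted it to 0.12 in knockout. Between wild-type and knockout immunoprecipitates (0 and 0), DESeq2 gave 60 higher and 33 lower, and leaving out 1 library gave 0 to 1 and 0. Between knockout and wild-type total RNA (0 and 0), DESeq2 gave 18 and 17 and the groups fitted alone gave 1 lower. For IMP2-dependent recovery every alternative run gave 0. With library size alone, 957 genes in place of 1515 were at least 1.5-fold higher with IMP2 than with IgG.

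Some values that did not pass changed sign under an alternative; the cause was not tested. Over total RNA, Txn2 came to 0.036 in wild type with upper-quartile scaling and to -0.24 to 0.0047 with 1 library left out. In knockout Txn2 came to 0.16 with upper-quartile scaling, 0.12 with library size alone, 0.0063 with relative log expression, 0.0081 with summed transcripts, 0.0065 with DESeq2, 0.011 with the groups fitted alone, and -0.030 to 0.045 with 1 library left out. Between immunoprecipitates Txn2 came to -0.037 with upper-quartile scaling, -0.035 with library size alone and -0.0044 with the groups fitted alone. With 1 library left out, values between immunoprecipitates ran -0.13 to 0.13 for Txn2, -0.0018 to 0.095 for Gpx1, -0.14 to 0.092 for Gpx4, -0.10 to 0.060 for Prdx5, -0.81 to 0.12 for Me1, -0.83 to 0.035 for Pgd and -0.094 to 0.65 for Ucp1. Knockout immunoprecipitates over total RNA ran -0.054 to 0.10 for Gpx1, -0.14 to 0.54 for Gpx3 and -0.058 to 0.62 for Ucp1. IMP2-dependent recovery ran -0.14 to 0.53 for Gpx3, -0.25 to 0.012 for Txn2, -0.96 to 0.29 for Me1 and -2.44 to 1.999 for Dio2. Knockout over wild-type total RNA ran -0.19 to 0.75 for Pgd.

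No paired analysis was possible because the groups share no replicate number and the labels tie no immunoprecipitate to a total RNA library; several genes ran in the same order in 16 and 17 as in 21 and 22, and in 18 and 19 as in 23 and 24, so the unpaired errors may not be those of the true design. Each group has 2 libraries, and where 1 is left out the lone library is assumed to vary like the others. The IMP2 and IgG immunoprecipitates of the IgG table have 1 library each, so their ratios have no replicate check.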
